A study of Mus musculus with 14 samples.

Results

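The genes described here are 45 mouse genes of DNA replication and entry into S phase, chosen by symbol for their known roles. Earlier results of these data were known when the genes were chosen. Each was found in both deposited gene tables, which together list 21732 genes, and each had enough signal to be tested. They cover origin licensing (Orc1, Orc6, Cdc6, Cdt1), the helicase subunits Mcm2 to Mcm7 and helicase activation (Mcm10, Cdc45, Gins1 to Gins4). The clamp and its loader (Pcna, Rfc1 to Rfc5), the polymerases and primase (Pola1, Pola2, Prim1, Prim2, Pold1, Pold2, Pole, Pole2) and single strand binding and strand joining (Rpa1, Rpa2, Fen1, Lig1) follow. Nucleotide supply (Rrm1, Rrm2, Tyms, Tk1, Dut), S phase entry and checkpoint genes (E2f1, E2f2, Ccne1, Ccne2, Chek1) and Uhrf1, which maintains DNA methylation, complete the list.

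A resting T cell sits outside the cell cycle, and its replication origins are not licensed. After the T cell receptor and CD28 are engaged, cyclin-dependent kinases inactivate the retinoblastoma proteins, E2F factors are released, and genes for licensing, the replicative helicase, polymerases and nucleotide synthesis are transcribed. ORC, CDC6 and CDT1 load the MCM2-7 ring onto origins, CDC45 and GINS turn it into the active helicase, and the clamp loader RFC places PCNA to hold the polymerases on DNA.

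The RNA came from cells labelled primary CD4 T cells of C57BL/6 mice. In culture, wild type lymph node cells were kept in medium (n = 2), stimulated with antibodies to CD3 and CD28 at 1 mg/ml (n = 3), or given the same antibodies with TRAIL at 10 ug/ml (n = 3), doses as labelled. TRAIL is the death receptor ligand that mouse cells bind through Tnfrsf10b. The spleen libraries came from TRAIL-R f/f mice given vehicle (n = 1), TRAIL-R f/f mice given TRAIL (n = 3) and mice labelled Lck Cre TRAIL-R f/f and given TRAIL (n = 2), so every mouse group was labelled as carrying the floxed receptor. Lck regulatory sequences are used to drive Cre in T cells, and other cells of such mice would keep the receptor. The bracketed name of the vehicle library is B6_spleen, which does not name the floxed receptor of its title, and that of Lck Cre replicate 1 has no TRAIL tag. No label gives an age or says that replicates were separate cultures or animals, so p-values measure only the spread between libraries.

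Libraries held 19.2 to 56.9 M reads, recovered from gene lengths and the deposited TPM (transcript abundance per length, scaled to a total of 1000000 in each library), and the fewest reads for any of the 45 genes in any library was 52. The targeted gene Tnfrsf10b was at 1.64, 1.46 and 2.31 TPM in the floxed TRAIL libraries and at 2.04 and 3.50 TPM in the libraries labelled Lck Cre, so it was not lower there. The mouse libraries did not match a pure CD4 T cell label: Cd4 was at 56.3 to 223 TPM, while the 8 neutrophil markers summed to 72559 to 96336 TPM in the 3 libraries of lane 2 and to 17624 to 26816 TPM in the 3 of lane 4. In culture the 8 CD4 T cell markers summed to 2863 to 4004 TPM and none was at 0. Markers of other cells differed between the culture groups. The 8 B cell markers summed to 1638 to 1652 TPM in medium, 206 to 256 TPM after stimulation and 1475 to 1485 TPM with TRAIL, and the 9 macrophage markers to 1061 to 1146, 17.9 to 22.1 and 292 to 357 TPM. Of the marker genes listed, Elane was at 0 in 1 stimulated library, and no B cell or macrophage marker was at 0. Their part in the results below was not tested, and in these bulk samples fewer cells of a type and less RNA per cell cannot be told apart.

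The first comparison asked how the replication genes responded to stimulation through CD3 and CD28. Of the 45 genes, 41 rose, 1 fell (Rpa1) and 3 did not pass the test (Gins3, Pole2 and E2f2). Of all 14035 genes tested, 27.5% rose and 49% fell, 76.5% in all. The libraries of the 2 groups did not overlap in 44 of the 45 genes. Over all genes tested that share was not counted, so overlap, here and below, only describes the gene named. Together the 45 genes made up 1515 and 1537 TPM in medium and 4253, 4385 and 4415 TPM in the stimulated libraries, so their share of all transcripts went from 0.151% and 0.154% to between 0.425% and 0.442%. Their median log2 fold change was 1.66, against -0.32 over all genes tested. Here and below, fold changes come from limma on log2(TPM + 1), a scale that understates changes of genes at low levels, and a gene passed with a Benjamini-Hochberg adjusted p under 0.05. Scaling by the median of ratios moved the median of all genes to 0.04. Under it 43 of the 45 genes rose and 0 fell, and over all genes tested 5604 rose and 4983 fell, against 3857 and 6884 unscaled.

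**Figure D1:**
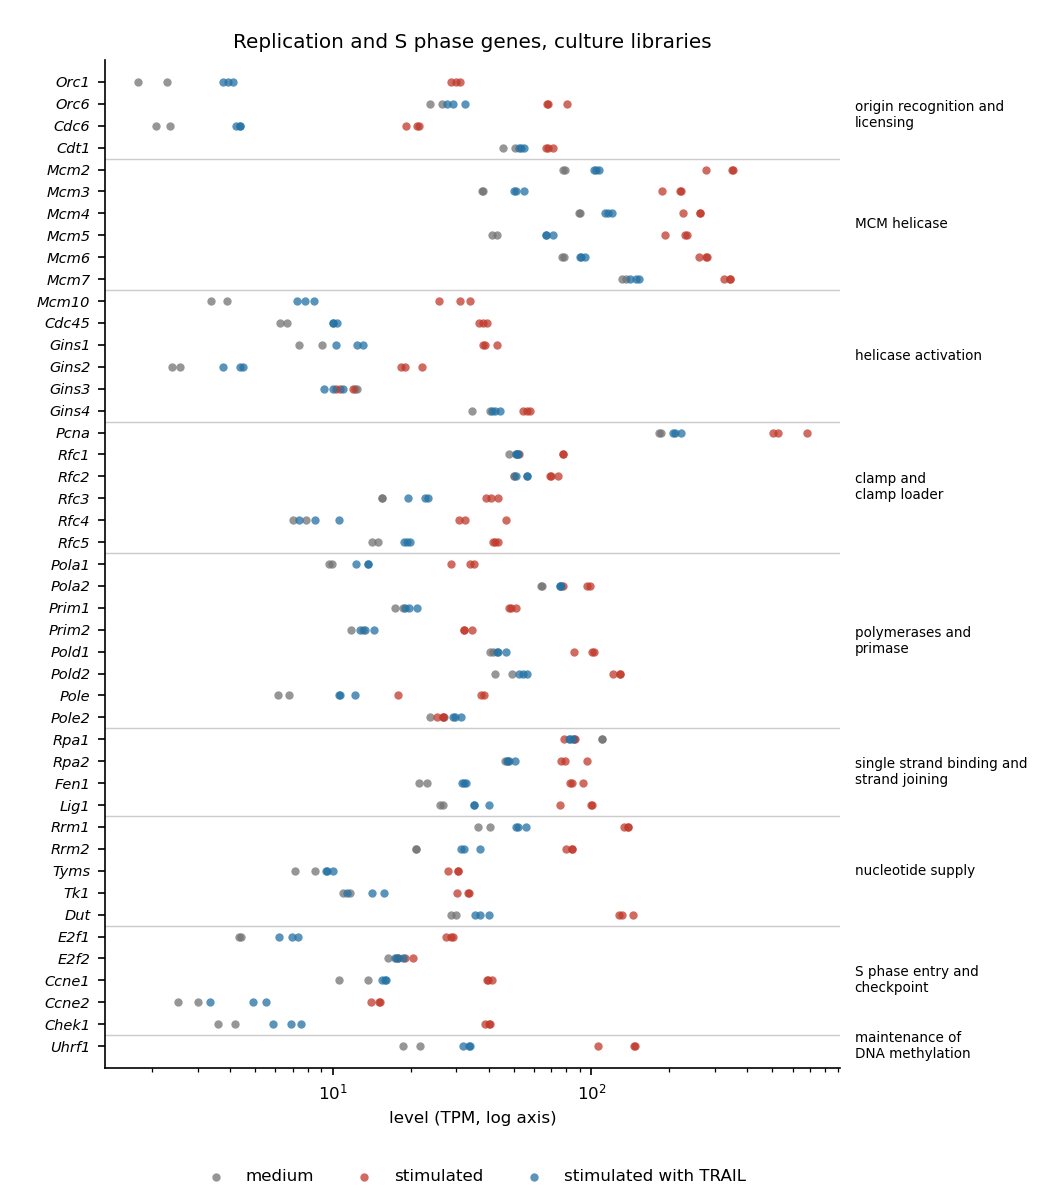
Level of each of the 45 genes in the 8 culture libraries (TPM, log axis), grouped by role, 1 point per library. Stimulated libraries lie to the right for most genes, while those of Gins3, E2f2 and Pole2 lie close to medium and those of Rpa1 below it. With TRAIL most points lie near the medium libraries.

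Licensing genes had the steepest single rise. Orc1, the largest subunit of the origin recognition complex, was at 1.77 and 2.29 TPM in medium and at 28.6, 31.0 and 30.04 TPM after stimulation. Every stimulated library was far above both medium libraries, and the log2 fold change of 3.35 ± 0.10 (SE) was the largest of the 45 (adjusted p = 8.02e-08). Orc1 shares 10.8% of its exon bases with Gm12743 on the other strand. Cdc6, the loader ATPase, was at 2.34 and 2.07 TPM in medium and at 19.2, 21.5 and 21.1 TPM after stimulation (2.75 ± 0.09, adjusted p = 1.15e-07). Cdt1, its partner in loading, was already at 45.4 and 50.6 TPM in medium and reached 66.4, 70.7 and 67.9 TPM, a small rise without overlap (0.50 ± 0.07, adjusted p = 2.52e-04). Orc6 rose as well (1.48), and all 4 licensing genes passed.

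All 6 helicase subunits rose, with log2 fold changes from 1.32 to 2.43. Mcm3 changed most, from 37.9 and 38.1 TPM in medium to 188, 222 and 219 TPM (2.43 ± 0.09, adjusted p = 1.38e-07). Mcm5 was next, at 41.2 and 43.0 TPM in medium and 192, 234 and 231 TPM after stimulation (2.34). Mcm2 stood at 77.6 and 78.7 TPM in medium and at 276, 353 and 349 TPM when stimulated (2.04). In each of these, stimulated replicate 1 was the lowest of its group and yet well above medium. Mcm6 went from 78.4 and 76.8 TPM to 260, 279 and 278 TPM (1.80) and Mcm4 from 90.0 and 89.4 TPM to 225, 264 and 263 TPM (1.47). Mcm7, the subunit with the highest level in medium at 136 and 131 TPM, had the smallest rise, to 325, 342 and 342 TPM (1.32).

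Helicase activation genes did not move as a unit. Mcm10, which helps to start unwinding, rose from 3.90 and 3.39 TPM to 25.7, 34.0 and 31.1 TPM (2.74 ± 0.13, adjusted p = 5.33e-07). Gins2, a subunit of the GINS tetramer, rose from 2.39 and 2.56 TPM to 22.1, 19.1 and 18.4 TPM (2.58), and Gins1, Gins4 and Cdc45 also rose (2.15, 0.57 and 2.39). Gins3, of the same tetramer, was at 12.4 and 12.2 TPM in medium and at 10.3, 12.0 and 10.6 TPM after stimulation, and did not pass (-0.16 ± 0.10, adjusted p = 0.183; above 0 with scaling). Of the tetramer's transcripts, those of Gins1 and Gins2 thus started below Gins3 and ended above it. Gins2 shares 67.3% of its exon bases with Gse1 on the other strand, and the strand of counting is not stated, so its level is uncertain.

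The sliding clamp gene Pcna, the highest of the 45 genes in TPM in culture, was at 182 and 186 TPM in medium and at 679, 503 and 525 TPM after stimulation (1.61 ± 0.12, adjusted p = 6.64e-06). The groups were well apart, with replicate 1 the highest. A Pcna pseudogene, Pcna-ps2, is listed in the same tables, so some Pcna reads may have been split between them. Among the clamp loader subunits, Rfc4 rose most, from 7.90 and 7.02 TPM to 46.9, 32.5 and 30.7 TPM (2.13 ± 0.20, adjusted p = 2.19e-05). Rfc3 (1.35) and Rfc5 (1.48) followed, and Rfc2 rose by 0.49. Rfc1, the large subunit, was at 51.3 and 47.9 TPM in medium and 52.4, 77.8 and 77.8 TPM after stimulation. Its replicate 1 lay next to medium, and its call (0.45 ± 0.16, adjusted p = 0.0305) was lost in 6 alternatives, with an adjusted p up to 0.137. Rfc2, Rfc4 and Rfc5 share over 10% of their exon bases with other genes, which makes their levels uncertain.

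Of the 8 polymerase and primase genes 7 rose. Pole, the catalytic subunit of the leading strand polymerase, had the largest change, from 6.79 and 6.16 TPM to 17.9, 38.4 and 37.5 TPM (2.03 ± 0.29, adjusted p = 2.94e-04). Its replicate 1 was less than the other two by a wide margin and above both medium libraries. Pole2, the second subunit of the same enzyme, was at 26.8 and 23.7 TPM in medium and 26.6, 25.4 and 26.7 TPM after stimulation, with overlapping groups (0.05 ± 0.08, adjusted p = 0.560). Scaled, Pole2 was 0.43 higher and passed (adjusted p = 0.00301). Pola1, the catalytic subunit that extends the primer, rose from 9.69 and 9.90 TPM to 28.5, 33.9 and 35.1 TPM (1.63), and its accessory subunit Pola2 by 0.48.

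Rpa1, the large subunit of the single strand binding protein, went the other way. It was at 109 and 110 TPM in medium and at 78.1, 85.8 and 86.1 TPM after stimulation, lower in every stimulated library (-0.39 ± 0.06, adjusted p = 6.75e-04). Scaled, its fold change was -0.0005 (adjusted p = 0.994), so its direction rests on the total used. Its partner subunit Rpa2 rose by 0.81 in the unscaled fit. Fen1, the flap nuclease that trims Okazaki fragments, rose from 21.5 and 23.1 TPM to 92.4, 82.5 and 84.2 TPM (1.91 ± 0.07), although 78.8% of its exon bases are shared with the antisense gene Gm10143. Lig1, the ligase that seals them, rose by 1.75.

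All 5 nucleotide supply genes rose, by 1.44 to 2.16. Dut, which removes dUTP, went from 28.6 and 29.9 TPM to 144, 128 and 132 TPM (2.16 ± 0.08, adjusted p = 1.71e-07). Rrm2, the regulated subunit of ribonucleotide reductase, went from 21 and 20.9 TPM to 84.1, 83.9 and 79.5 TPM (1.93). Tyms, which makes thymidylate, rose from 7.15 and 8.57 TPM to 30.6, 27.8 and 30.5 TPM (1.79). None of the 3 overlapped between groups.

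Among the regulators, E2f1 and E2f2 separated. E2f1, an activating E2F factor, was at 4.35 and 4.43 TPM in medium and 27.4, 28.7 and 29.2 TPM after stimulation (2.45 ± 0.09, adjusted p = 1.61e-07). E2f2, another activating factor, was at 16.3 and 17.6 TPM in medium and 17.9, 20.5 and 19.0 TPM after stimulation. Its libraries lay just above medium without passing (0.16 ± 0.08, adjusted p = 0.114), and it passed at 0.21 without stimulated replicate 1 (adjusted p = 0.0258) and at 0.54 when scaled. Medium cells therefore held more E2f2 than E2f1 transcript per length, and stimulated cells more E2f1. Cyclin E genes rose, Ccne1 from 10.6 and 13.6 TPM to 39.4, 41.2 and 39.9 TPM (1.66). Ccne2 went from 3.0 and 2.51 TPM to 15.1, 14 and 15.2 TPM (2.07), and 17.4% of its exon bases are shared with Ints8. Chek1, the replication checkpoint kinase, rose from 4.17 and 3.59 TPM to 40.6, 38.9 and 40.2 TPM, second only to Orc1 among the 45 (3.07 ± 0.11, adjusted p = 1.41e-07). Uhrf1, which brings the maintenance methyltransferase to new DNA, rose from 18.7 and 21.8 TPM to 106, 147 and 146 TPM (2.64 ± 0.15).

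Because most of these genes moved together, their promoter windows were searched for the E2F site written as TTTCGCGC, TTTGGCGC, TTTCCCGC or TTTGCCGC on either strand. RefSeq windows on GRCm38.p6, from 250 bases before to 50 after the annotated start, were matched for 37 of the 45 genes. Of these, 15 (40.5%) held at least 1 form, against 704 of 27025 genes in the promoter table (2.61%), 463 of the 9548 tested genes with a window (4.85%) and 1 of 27 mitosis genes (3.70%). The CHR element TTTGAA, a motif of late cell cycle genes, was in 6 of the 37 (16.2%), 20 of 27 mitosis genes (74.1%), 20.2% of all genes and 14.9% of tested genes. CCAAT was in 59.5% of the 37, 77.8% of the mitosis genes, 41.1% of all genes and 43.1% of tested genes, and the E-box CACGTG in 16.2%, 11.1%, 8.09% and 11.9%. E2F forms on opposite strands can share bases, and the other motifs can overlap them. Having one of these exact forms in the window did not go with a larger response. The median log2 fold change after stimulation was 1.63 for the 15 with a form and 1.73 for the 22 without. The 15 include Gins3, Pole2 and E2f2. Variants and sites outside the window were not counted, so some of the 22 may hold a site. The matched E2f1 and Chek1 windows, for example, lie inside their annotated genes. Whether having a site goes with the response can thus not be read from this split.

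Windows are shown for the gene that rose most (Orc1) and for 3 of the helicase genes with 2 or more matches (Mcm3, Mcm5, Mcm6). Mcm7, the helicase subunit with the smallest rise, also has 2 matches and is left out. Also shown are Pole2, with a match but a level that stayed near medium, and Chek1, a strong riser with no full match. The Chek1 window lies inside the annotated gene, so the bases before the start of that gene were not searched. Capitals mark E2F forms on either strand, and each is given 5′ to 3′ on the strand of the gene.
Orc1, chr4:108579204-108579503, plus strand: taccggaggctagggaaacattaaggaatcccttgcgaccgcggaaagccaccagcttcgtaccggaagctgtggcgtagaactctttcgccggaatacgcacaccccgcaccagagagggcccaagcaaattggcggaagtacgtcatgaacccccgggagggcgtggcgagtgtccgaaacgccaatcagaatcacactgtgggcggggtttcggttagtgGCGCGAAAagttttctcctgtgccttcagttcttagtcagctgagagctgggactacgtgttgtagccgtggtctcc
Mcm3, chr1:20820263-20820562, minus strand: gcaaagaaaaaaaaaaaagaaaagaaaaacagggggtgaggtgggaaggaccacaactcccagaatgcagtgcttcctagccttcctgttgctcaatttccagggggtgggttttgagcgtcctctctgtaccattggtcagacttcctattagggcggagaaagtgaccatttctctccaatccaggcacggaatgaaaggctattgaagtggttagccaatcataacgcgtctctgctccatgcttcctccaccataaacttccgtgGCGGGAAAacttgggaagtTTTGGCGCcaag
Mcm5, chr8:75109259-75109558, plus strand: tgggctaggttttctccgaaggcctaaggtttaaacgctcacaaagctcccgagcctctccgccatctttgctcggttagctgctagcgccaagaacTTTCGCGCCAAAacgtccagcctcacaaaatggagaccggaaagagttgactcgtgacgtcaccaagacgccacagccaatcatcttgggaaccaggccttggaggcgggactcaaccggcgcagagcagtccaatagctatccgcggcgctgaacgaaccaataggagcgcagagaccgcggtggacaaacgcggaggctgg
Mcm6, chr1:128359656-128359955, minus strand: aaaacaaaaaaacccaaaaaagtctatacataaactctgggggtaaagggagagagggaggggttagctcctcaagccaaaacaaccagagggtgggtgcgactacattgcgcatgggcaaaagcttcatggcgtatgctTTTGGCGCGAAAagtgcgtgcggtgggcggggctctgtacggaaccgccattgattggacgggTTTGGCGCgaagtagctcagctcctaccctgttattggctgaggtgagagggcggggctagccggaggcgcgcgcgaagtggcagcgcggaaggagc
Pole2, chr12:69228141-69228440, minus strand: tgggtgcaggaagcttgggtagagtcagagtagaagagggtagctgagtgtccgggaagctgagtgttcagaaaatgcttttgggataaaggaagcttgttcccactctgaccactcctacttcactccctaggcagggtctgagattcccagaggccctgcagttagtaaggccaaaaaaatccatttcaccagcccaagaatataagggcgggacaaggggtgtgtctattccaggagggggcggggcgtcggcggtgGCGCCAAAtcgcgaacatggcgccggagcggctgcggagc
Chek1, chr9:36726609-36726908, minus strand: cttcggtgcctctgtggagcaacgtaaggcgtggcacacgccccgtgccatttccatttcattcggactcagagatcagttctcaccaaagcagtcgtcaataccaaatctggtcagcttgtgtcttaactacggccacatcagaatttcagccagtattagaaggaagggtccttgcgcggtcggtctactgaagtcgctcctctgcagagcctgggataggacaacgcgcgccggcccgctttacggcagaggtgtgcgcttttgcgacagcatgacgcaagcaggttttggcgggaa
In Mcm5 and Mcm6 a TTTCGCGC and a TTTGGCGC on opposite strands share bases, and Mcm6 has 1 more TTTGGCGC closer to the start. The 2 matches of Mcm3 and that of Pole2 lie after the annotated start, and that of Orc1 just before it. The Chek1 window ends in gcgggaa, the start of GCGGGAAA, which is TTTCCCGC on the other strand. A form that crosses the window edge would not have been counted. A match is a description of these letters and not evidence of binding, and no match is not evidence that a site is lacking.

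**Figure D2:**
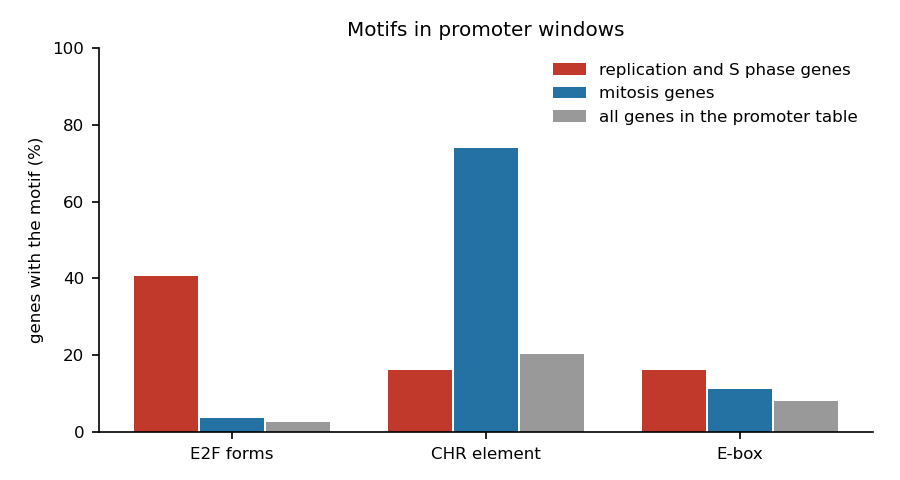
Share of genes (%) whose promoter window holds an E2F form, the CHR element or the E-box, for the 37 matched replication genes, the 27 matched mitosis genes and all 27025 genes in the promoter table. E2F forms stand out in the replication genes at 40.5% and the CHR element in the mitosis genes at 74.1%.

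The second comparison asked what TRAIL changed in stimulated cells. With TRAIL, 41 of the 45 genes were lower, 1 was higher (Pole2) and 3 did not pass (Gins3, Rpa1 and E2f2), where 28.6% of all genes tested were lower and 48.1% higher, 76.7% in all. Their sum was 1872, 1814 and 1783 TPM with TRAIL, against 4253 to 4415 TPM without it. The median log2 fold change was -1.28, against 0.25 over all genes tested. Scaled, 44 were lower and 0 higher, and over all genes tested 5628 were lower and 5153 higher, against 4019 and 6746 unscaled. This comparison shares its stimulated libraries with the first one, so the opposite signs of the 2 sets of fold changes are not independent of each other.

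**Figure D3:**
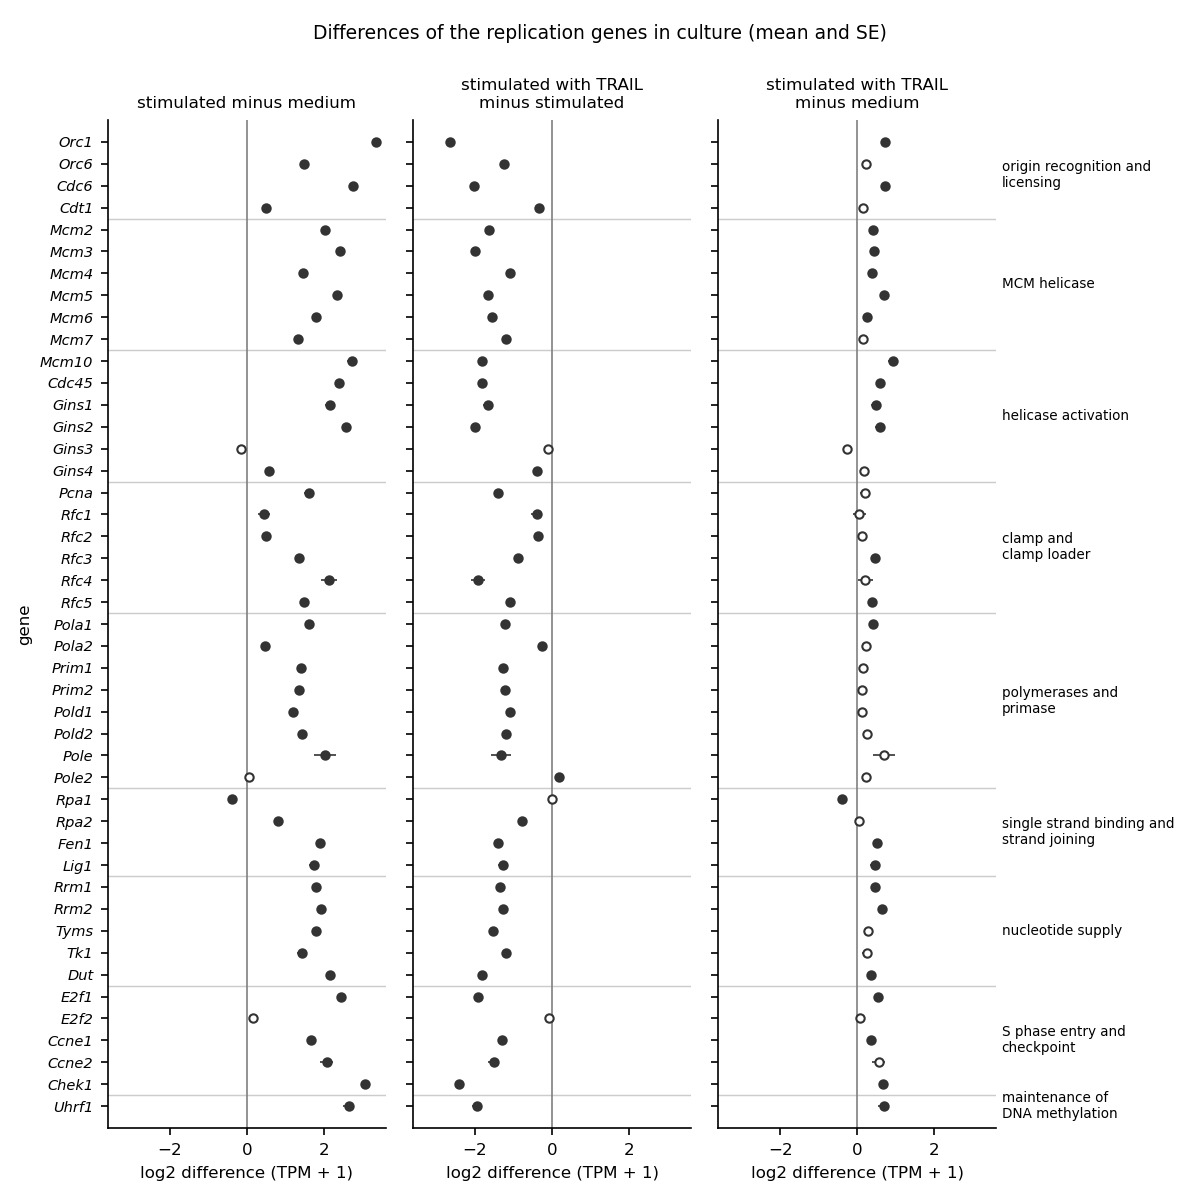
Log2 differences of the 45 genes in the 3 culture comparisons (points, with SE as bars), on the log2(TPM + 1) scale. Filled points passed at an adjusted p under 0.05. Most genes lie right of 0 after stimulation, left of 0 when TRAIL is added, and slightly right of 0 when TRAIL cells are set against medium.

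All 4 licensing genes were lower with TRAIL. Orc1 was at 4.12, 3.77 and 3.95 TPM with TRAIL against 28.6 to 31.0 TPM without, a log2 fold change of -2.64 ± 0.09 and again the largest of the 45 (adjusted p = 1.25e-07). Cdc6 was at 4.40, 4.21 and 4.38 TPM (-2.02), and Cdt1 at 52.2, 54.8 and 53.6 TPM (-0.35). The groups did not overlap in any of these. All 6 helicase subunits were lower. Mcm3 fell furthest, to 54.6, 50.4 and 50.9 TPM (-1.99 ± 0.08, adjusted p = 2.06e-07), and Mcm5 was at 71.2, 66.7 and 66.5 TPM (-1.66). Mcm2 was at 104, 107 and 102 TPM (-1.62) and Mcm6 at 94.5, 90.5 and 91.2 TPM (-1.55). Each of these 4 lay between the medium and the stimulated libraries, much nearer to medium. Mcm4, at 120, 113 and 115 TPM (-1.10), and Mcm7, at 153, 149 and 141 TPM (-1.18), had the smaller falls among the subunits.

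Of the helicase activators, Gins2 fell most, to 4.51, 4.38 and 3.76 TPM (-2.00 ± 0.10), and Mcm10 was at 7.78, 8.49 and 7.29 TPM (-1.81). Gins3 stayed at 10.0, 10.98 and 9.29 TPM and overlapped the stimulated libraries (-0.11 ± 0.09, adjusted p = 0.301), although scaled it was lower and passed (-0.40, adjusted p = 0.00215). Rfc4 was at 10.6, 7.43 and 8.56 TPM (-1.92 ± 0.18) and Pcna at 222, 210 and 206 TPM (-1.40). Both were well below every stimulated library. Rfc3 and Rfc5 fell by 0.88 and 1.10 on the log2 scale. Rfc1, at 51.3, 51.4 and 52.2 TPM, passed narrowly (-0.40, adjusted p = 0.0334) and lost its call in 8 alternatives.

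Pole was at 12.2, 10.6 and 10.6 TPM with TRAIL (-1.34 ± 0.26, adjusted p = 0.00174) and Pola1 at 13.6, 12.3 and 13.7 TPM (-1.23). Pole2 was the exception, at 29.6, 31.3 and 29.0 TPM, above every stimulated library (0.19 ± 0.07, adjusted p = 0.0385). That rise was lost when any library of either group but stimulated replicate 1 was left out, with adjusted p from 0.0615 to 0.131. With scaling Pole2 turned to -0.13 (adjusted p = 0.199). Rpa1, at 81.7, 84.6 and 82.6 TPM, lay within the range of the stimulated libraries (adjusted p = 0.941), and scaled it was lower by 0.32 on the log2 scale (adjusted p = 3.94e-04). Fen1 was at 32.9, 31.7 and 32.2 TPM (-1.39).

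The 5 nucleotide genes were all lower with TRAIL. Dut was at 40.3, 35.6 and 37.0 TPM (-1.81), Rrm2 at 36.9, 31.3 and 32.0 TPM (-1.28) and Tyms at 9.39, 9.51 and 10.0 TPM (-1.52). Among the regulators, E2f1 fell to 7.32, 6.96 and 6.19 TPM (-1.91 ± 0.08), while E2f2 stayed at 17.4, 18.7 and 17.9 TPM, overlapping the stimulated libraries (-0.08 ± 0.08, adjusted p = 0.355; -0.39 and passing when scaled). The order of the 2 factors was thus again that of medium, with E2f2 above E2f1. Ccne1 was at 15.97, 15.5 and 16.1 TPM (-1.29) and Ccne2 at 4.90, 5.52 and 3.35 TPM (-1.52). Chek1 fell to 7.52, 5.86 and 6.87 TPM (-2.41 ± 0.10, adjusted p = 2.64e-07), the second largest fall after Orc1. Uhrf1 was at 33.5, 33.9 and 32.0 TPM (-1.96), also without overlap.

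The third comparison set stimulated cells with TRAIL against medium. Here 23 genes were higher, 1 was lower (Rpa1) and 21 did not pass, against 7.25% of all genes tested that were higher and 9.93% that were lower, 17.2% in all. The median log2 fold change was 0.37, against -0.06 over all genes tested, and 43 of the 45 values were above 0. Scaled, 24 were higher and 1 lower, and over all genes tested 1298 were higher and 1046 lower, against 1017 and 1394 unscaled. None reached 1 on the log2(TPM + 1) scale. Mcm10 had the largest (0.93 ± 0.13, adjusted p = 0.0024), followed by Cdc6 (0.73), Orc1 (0.71), Pole (0.70, adjusted p = 0.147) and Uhrf1 (0.69). By role, 5 of 6 helicase subunits, 4 of 6 helicase activators, 3 of 5 nucleotide genes and 3 of 5 regulators were higher, as were 2 of 6 clamp genes and 1 of 8 polymerase genes (Pola1, 0.40). Pcna (0.20, adjusted p = 0.305), Tyms (0.27, adjusted p = 0.0966), Mcm7 (0.14, adjusted p = 0.174) and Cdt1 (0.16, adjusted p = 0.175) were among those that did not pass. The number called depended on single libraries: 9 were higher without medium replicate 1, 10 without medium replicate 2 and 13 without TRAIL replicate 1. Without stimulated replicate 1, which enters through the shared spread, 32 were higher and 2 lower.

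In the authors' deposited table, 43 of the 45 genes were called higher after stimulation and 0 lower (Gins3 and Rpa1 not called), 44 lower with TRAIL and 0 higher (Pole2 not called), and 23 higher and 1 lower with TRAIL against medium. Of all 20875 genes listed in culture, the authors' deposited table called 62.6%, 61.9% and 12.4% in the same order of comparisons. The medians of the log2 fold changes of the 45 genes in the authors' deposited table were 2.14, -1.63 and 0.44 in that order. For TRAIL against medium, the values in the authors' deposited table passed 1 for Mcm10 (1.17), Orc1 (1.04) and Cdc6 (1.04).

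Stimulated replicate 1 stood apart from replicates 2 and 3 by gene length. Across the 45 genes, the log2 difference of replicate 1 from the mean of the other two correlated with log2 gene length at r = -0.75 (n = 45 genes of the same 3 libraries, a description), and at -0.31 over all genes tested. For replicate 2 minus replicate 3 the value was 0.12. The 15 shortest of the 45 genes had a median difference of 0.07 and the 15 longest -0.24. Pole was lower in replicate 1 by 1.04 on the log2 scale and Rfc1 by 0.56, while Pcna was higher by 0.40 and Rfc4 by 0.55. Without replicate 1, 42 genes rose and 1 fell after stimulation, and 41 were lower and 1 higher with TRAIL, so the counts of those 2 comparisons did not rest on it.

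**Figure D4:**
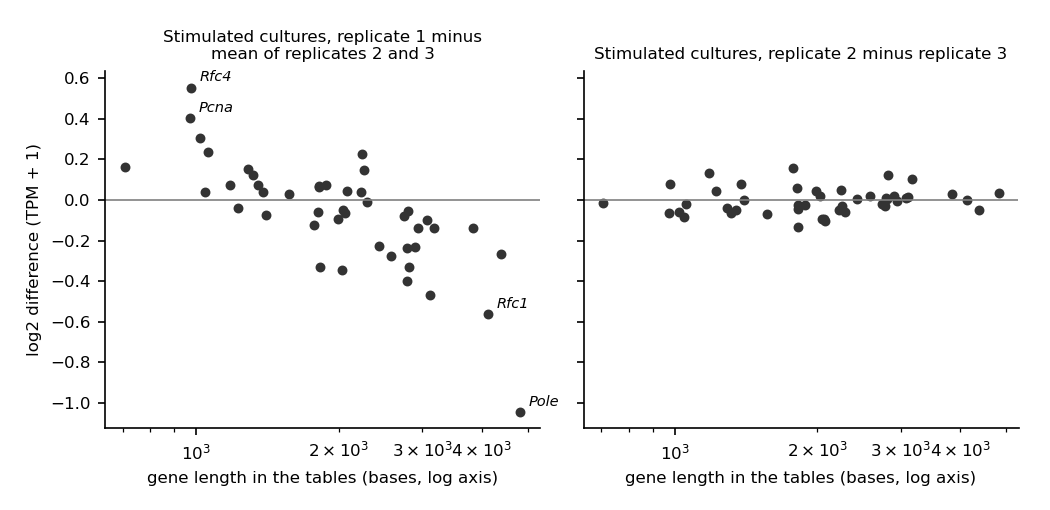
Log2 difference between stimulated libraries for each of the 45 genes (y axis, log2(TPM + 1)) against gene length in bases (x axis, log axis). On the left, replicate 1 minus the mean of replicates 2 and 3 falls with length, from 0.55 for the short Rfc4 to -1.04 for the long Pole. On the right, replicate 2 minus replicate 3 stays near 0.

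Other genes of the same process were read from a second list. Of its 50 replication genes 36 rose after stimulation and 8 fell (median 0.98), and with TRAIL 39 were lower and 8 higher (median -0.87). Licensing inhibitor geminin (Gmnn) rose from 17.1 ± 0.261 TPM (SD, n = 2) to 89.7 ± 9.25 TPM (n = 3) and was at 24.4 ± 3.14 TPM (n = 3) with TRAIL. The MCM relative Mcm8 went from 2.89 to 11 and 3.43 TPM in the same order of groups. Firing factors Ticrr (2.09, 9.49 and 3.47 TPM) and Recql4 (2.40, 10.2 and 2.44 TPM), fork proteins Tipin (35.0, 148 and 43.3 TPM) and Clspn (5.01, 29.2 and 11.7 TPM), and chromatin genes Cdca7 (23.1, 149 and 30.1 TPM) and Chaf1a (3.86, 28 and 7.35 TPM) showed the same up and down. All of these passed both tests. In nucleotide supply the list was split: Dctpp1, a dCTP pyrophosphatase, was at 12.6, 54.6 and 13 TPM, while mitochondrial thymidine kinase Tk2 fell from 103 to 35.0 TPM and was at 93.7 TPM with TRAIL. The 5 genes whose levels followed the mean of the 45 most closely over the 8 culture libraries were Tubb5, Il2ra, Sema7a, Lmnb1 and Scd2. Each had a Pearson r of 0.999, a description over libraries that share 3 groups. Many genes followed that mean strongly (2553 of 14034), so a strong correlation is not particular to these 5.

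The list of 18 other E2F and G1/S control genes moved both ways, with 10 higher and 6 lower after stimulation. Tfdp1, the dimer partner of E2F factors, rose from 43.5 to 241 TPM and was at 54.1 TPM with TRAIL. The CDK inhibitor gene Cdkn1b had the reverse course, at 403 and 373 TPM in medium, 65.3, 72.0 and 68.1 TPM after stimulation and 296, 302 and 301 TPM with TRAIL. The groups were apart in both comparisons (-2.49 and 2.11). Cdkn1a, another CDK inhibitor, rose from 28.9 to 69.4 TPM and was at 46.3 TPM with TRAIL.

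Of 31 mitosis genes, 27 rose after stimulation and 2 fell (median 1.10), and 23 were lower and 1 higher with TRAIL (median -0.62). Against medium, 18 mitosis genes were higher with TRAIL and 1 lower (median 0.53). The medians of the 45 were 1.66, -1.28 and 0.37, and whether the 2 lists differ was not tested. Cdk1, the mitotic kinase, went from 4.84 to 27.1 TPM and was at 8.18 TPM with TRAIL. Mki67, the proliferation marker, was at 31.3 and 30.8 TPM in medium, 21.4, 58.7 and 54.4 TPM after stimulation and 48.0, 44.1 and 42.9 TPM with TRAIL. Its stimulated replicate 1 lay below medium and the other two above, and neither test passed (adjusted p = 0.356 and 0.730). Cenpa, the centromeric histone, went against the list, from 159 to 28.4 TPM after stimulation and to 117 TPM with TRAIL.

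In the mouse experiment, the first question was whether the replication genes differed between mice labelled Lck Cre and floxed mice when both were given TRAIL. None of the 45 passed, and 0% of the 14176 genes tested were called by limma (106 at an unadjusted p under 0.05, with Pola1 among them). All 45 differences were below 0, with a median of -0.39, against -0.04 over all genes tested, of which 57.8% were below 0. All 31 mitosis genes were below 0 as well (median -0.40), so this direction was not particular to the 45. The 5 genes with the smallest p were Pola1 (-0.61 ± 0.23), Rfc3 (-0.45 ± 0.20), Chek1 (-0.50 ± 0.23), Mcm10 (-0.77 ± 0.36) and Rfc1 (-0.37 ± 0.18), each with an adjusted p of 1 from limma. Pola1 was at 53.5, 42.1 and 43.0 TPM in the floxed TRAIL libraries and at 25.1 and 35.3 TPM in those labelled Lck Cre, and Chek1 at 30.2, 23.7 and 28 TPM against 16.5 and 21.6 TPM. In both genes, named for their small p, the groups did not overlap, and Lck Cre replicate 1 was the lower of its pair. The groups did not overlap in 9 of the 45 genes, and the share over all genes tested was not counted. The groups did overlap in all 4 licensing genes and all 6 helicase subunits.

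The 2 libraries labelled Lck Cre differed widely from each other. The 45 genes summed to 2419 TPM in Lck Cre replicate 1 and 4238 TPM in replicate 2, against 3794, 4128 and 4801 TPM in the floxed TRAIL libraries and 2518 TPM in the vehicle library. Mcm2, for example, was at 75.9 and 234 TPM in the libraries labelled Lck Cre and at 145, 227 and 265 TPM in the floxed TRAIL ones. Replicate 2 thus lay within the floxed TRAIL range for the sum and for Mcm2. For some genes, such as Pola1, Chek1 and Cdc45, it lay below all 3 floxed TRAIL libraries. Replicate 1, floxed TRAIL replicate 1 and the vehicle library were sequenced on lane 2 and the rest on lane 4. Within lane 2 (1 library against 1) the median difference was -0.60 and all 45 genes were below 0, as were 55.7% of all genes tested. Within lane 4 (1 against 2) it was -0.09 with 36 below 0, where the median of all genes tested was 0.04 and 41.2% were below 0. For the 31 mitosis genes the medians were -0.65 in lane 2 (31 below 0) and -0.33 in lane 4 (30 below 0). Without Lck Cre replicate 1 the median of the 45 was -0.01, and without replicate 2 it was -0.74.

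**Figure D5:**
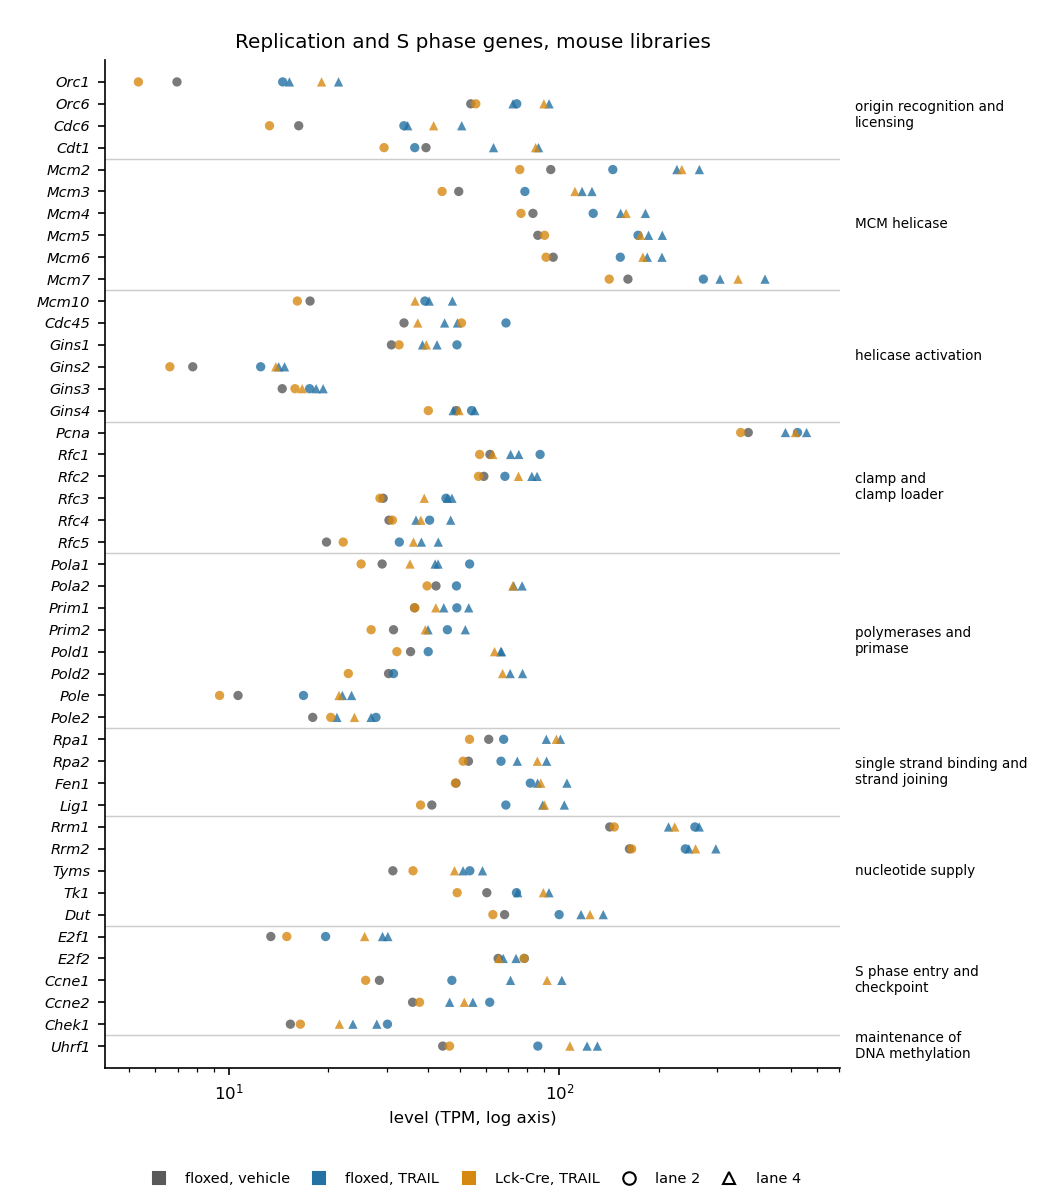
Level of each of the 45 genes in the 6 mouse libraries (TPM, log axis), coloured by group, with circles for lane 2 and triangles for lane 4. The vehicle library and Lck Cre replicate 1 (circles) lie to the left for most genes. Lck Cre replicate 2 lies among the floxed TRAIL libraries for most genes and to their left for some, such as Pola1 and Chek1.

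The last comparison set the floxed TRAIL libraries against the single vehicle library, whose spread was taken from that of the other groups. Again no gene passed (0% of those tested, with 566 genes and 8 of the 45 at an unadjusted p under 0.05). All 45 values were above 0, with a median of 0.67, against 0.07 over all genes tested, of which 57.9% were above 0. All 31 mitosis genes were above 0 as well (median 0.50). Tyms (0.77 ± 0.25), Mcm5 (1.11 ± 0.38), Chek1 (0.79 ± 0.29), Mcm10 (1.21 ± 0.45) and Rfc5 (0.90 ± 0.34) had the smallest p, each with an adjusted p of 0.972 from limma. Mcm5 was at 86.04 TPM in the vehicle library and at 173, 186 and 205 TPM with TRAIL. Tyms was at 31.4 TPM in the vehicle library and at 53.6, 51.1 and 58.5 TPM with TRAIL. In both, every TRAIL library was above the vehicle library, as in 43 of the 45 genes. The share over all genes tested was not counted. Within lane 2 (1 library against 1) the median was 0.61 and 44 of the 45 genes were above 0, as were 46.3% of all genes tested. All 31 mitosis genes were above 0 there too (median 0.86). With lane as a term the median of the 45 genes was 0.42. The 8 CD4 T cell markers summed to 1783 TPM in the vehicle library, 402 to 1318 TPM in the floxed TRAIL libraries and 1068 to 1541 TPM in those labelled Lck Cre. Their values ran against those of the 45 genes in both mouse comparisons: all 8 were below 0 with TRAIL against vehicle (median -1.09) and all 8 above 0 in Lck Cre against floxed (median 0.70), none passing. Both CD8 T cell markers and all 4 platelet markers had the same signs as the CD4 T cell markers. Both mouse comparisons use the floxed TRAIL libraries, so their signs are not independent.

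The vehicle library and Lck Cre replicate 1 were both below the other 4 mouse libraries in 41 of the 45 genes (91.1%), against 23.0% of the genes tested. The exceptions were Cdt1, Cdc45, Gins4 and E2f2. The vehicle library and Lck Cre replicate 1 also held the most reads, 56.9 and 40.1 M, against 19.2 to 24.7 M in the other 4. E2f2 was at 65.3 TPM in the vehicle library, 78.3, 73.9 and 67.6 TPM in the floxed TRAIL libraries and 78.2 and 65.6 TPM in those labelled Lck Cre, all within a narrow range. Ccne1 varied more, at 28.6 TPM with vehicle, 47.3, 71.1 and 102 TPM in the floxed TRAIL libraries and 25.9 and 91.7 TPM in those labelled Lck Cre. Of the 9 erythroid markers, 2, named after their values were seen, ran in the same order as Ccne1 over the 6 libraries, the transcription factor Klf1 (19.7 TPM, then 39.8, 85.8 and 145, then 4.16 and 115) and the erythropoietin receptor Epor (11.5 TPM, then 19.7, 29.5 and 59.7, then 3.0 and 54.4). These 2 were above 0 with TRAIL against vehicle and the other 7 below 0. Hbb-bs and Hba-a1, the globin genes with the most transcript, were at 12317 and 5292 TPM in the vehicle library, above every other mouse library. The 9 erythroid markers as a whole summed to 22075 TPM in the vehicle library, 1848 to 5587 TPM in the floxed TRAIL libraries and 4101 to 8030 TPM in those labelled Lck Cre. The part of these cells, of T cells and platelets, of the lane and of the number of reads in the mouse differences was not tested.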

How the data were processed

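Whole-transcriptome RNA sequencing was deposited as 2 gene tables, 8 culture and 6 mouse libraries. Culture values are TPM, per the file headers. The mouse table names only its libraries, and its unit was inferred because each deposited column also sums to 1000000. Log2 fold changes and p-values of the authors' own culture tests are deposited per the file headers. The submitters' processing notes list StringTie 2.1.4, HISAT2 2.1.0, DESeq2 1.26.0, Trimmomatic 0.36, SAMtools 1.2, bcl2fastq and the build GRCm38.p6, with no roles. Which genes were filtered and the strand of counting are not given in the sources used here.

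In every library the products of TPM and gene length were whole multiples of a fixed step, which was taken as 1 read. Genes averaging 1 TPM or more (14035 in culture, 14176 in mice) were tested with limma 3.58.1 in R 4.3.3 on log2(TPM + 1), with a variance trend and all groups of an experiment in 1 fit. P-values were two-sided and adjusted over all genes tested by Benjamini-Hochberg, threshold 0.05. Residual degrees of freedom were 5 and 3. The fit was also run on simulated data, for the first comparison of each experiment only. The simulated noise was independent between libraries and had no lane effect, so it does not bear on lanes or on the other comparisons.

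In the mouse experiment same-numbered libraries shared a lane by their labels. The deviations of floxed TRAIL and Lck Cre libraries correlated at 0.70 for number 1 and 0.22 for number 2. Floxed TRAIL replicate 3 and Lck Cre replicate 2, of different numbers but the same lane, correlated at 0.69. The deviations of the 2 Lck Cre libraries mirror each other, so these values are not independent. The 45 genes and all other lists were chosen with earlier results of these data known. Described in full were a set of key genes, the largest change of each role, those not rising with stimulation and the 5 smallest p of each mouse comparison, ranked by p where adjusted p tied. Among other lists, the 2 largest changes of each and Mki67, Cdkn1a, Cdkn1b and Gmnn are given. Exon overlaps come from GENCODE M21. Scaling, pseudocount, filter, fit, lane, pairing and left-out libraries were varied.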

Additional observations from a re-analysis of the deposited data

How the results depend on the processing

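After stimulation, 40 to 43 of the 45 genes were higher in every alternative, and with TRAIL 39 to 44 were lower. Scaling by the median of ratios gave 0 lower after stimulation (1 unscaled, Rpa1) and 0 higher with TRAIL (1 unscaled, Pole2), and turned Pole2 with TRAIL to -0.13. Leaving out 1 library gave 40 to 42 higher and 1 lower after stimulation, 39 to 41 lower and 0 to 1 higher with TRAIL, and 9 to 32 higher and 1 to 2 lower with TRAIL against medium. Replicate numbers did not pair the culture libraries: deviations of same-numbered libraries correlated at -0.13 to 0.08. With the replicate block 40 genes were higher after stimulation, 40 lower and 0 higher with TRAIL, and 15 higher with TRAIL against medium, where 23 were higher without it. The cause of these differences was not tested. A pseudocount of 0.1, no filter, a mean TPM of at least 5, no variance trend and fitting only the groups compared kept the counts of the 45 in culture within 1.5 times. Over all genes tested, TRAIL against medium gave 1017 higher and 1394 lower, but 1914 and 3227 when only these groups were fitted, 623 and 733 with the replicate block, and 466 to 2071 and 436 to 3370 when 1 library was left out.

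In mice no gene of the 45 was called under any alternative, the replicate block and lane included, nor in lane 4 alone, an alternative chosen after seeing the data. The vehicle library could not be left out, and no paired analysis was possible for it because it is a single library. The mouse fit had 3 residual degrees of freedom.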
